A study of Mus musculus with 7 samples.

Results

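The 8 chemokine receptor genes Cxcr3, Cxcr4, Cxcr5, Cxcr6, Ccr2, Ccr4, Ccr8 and Ccr9 were followed through 7 droplet libraries of single T cells from mouse spleen. They were taken by symbol from the 27514 genes that the references of all 7 libraries share, and all 8 were found. The list was chosen with earlier results of these data known, so member counts set beside shares of all genes are a description. Cells came from male C57BL/6 mice of 8 weeks, and every sort was gated as CD3+ NK1.1- with an αβ and no γδ T cell receptor. Double-negative T cells (DNT) carry neither CD4 nor CD8. The naive DNT group (2 libraries) was sorted as CD4- and CD8- and as negative for CD1d loaded with αGal or LPC, which leaves out cells that bind these lipids. The activated DNT group (2 libraries) held such naive cells after 3 days of culture with antibodies to CD3 and CD28 and IL-2 at 20 ng/ml. The CD4, CD8 and TCRab groups, the last being αβ T cells not split by CD4 or CD8, had 1 library each and were not cultured. The series text calls the DNT replicates biological. Stimulation and culture cannot be told apart here, because no group was cultured without stimulation.

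Chemokine receptors are surface proteins that cross the membrane several times, couple to inhibitory G proteins, and steer cells along gradients of small secreted proteins, the chemokines. Receptors that read inflammatory signals bring effector and memory T cells into tissue, while others hold cells in bone marrow, follicles, skin or gut. T cells exchange one set for another when they meet antigen, so the receptors are read as a record of where a cell can go. Transcript levels do not measure receptor on the surface.

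The 7 libraries held 1549 to 6728 cells after filtering, 28101 in all, with 17255173 to 53342795 UMIs (unique molecular identifiers, which count captured transcripts) over the shared genes. Median UMIs per cell were 4090 and 7511 in naive DNT, 15724 and 9347 in activated DNT and 3966 to 4877 in the other groups. Chromium kit v2 was used for the single libraries and for naive and activated DNT 1, and kit v3 for naive and activated DNT 2. Levels are given as CPM, UMIs per 1000000 UMIs of the shared genes in a library. A Cd4 UMI was found in 0.0247% to 0.112% of DNT cells and in 42.5% of CD4 cells. The CD4 library held 2969 Cd4 UMIs over 5035 cells, so a cell without one is not shown to lack CD4. A Cd8a or Cd8b1 UMI was found in 3.54% to 5.86% of DNT cells, 8.38% of CD4 cells and 99.3% of CD8 cells. Myeloid marker genes summed to 325 and 70.3 CPM in naive DNT and to 0.931 and 1.27 CPM in activated DNT. Haemoglobin genes summed to 3691 and 816 CPM in naive DNT and to 0 and 0.436 CPM in activated DNT. Pairs of libraries shared 0 to 36 cell barcodes, at most 0.838% of the smaller library.

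Of the 8 genes, 6 lie on chromosome 9, and Cxcr4 and Cxcr3 lie on chromosomes 1 and X (GENCODE vM21, GRCm38). Ccr9 (chr9:123678439-123784330, plus strand), Cxcr6 (chr9:123806475-123811760, plus strand) and Ccr2 (chr9:124101950-124113557, plus strand) are neighbours, with 22.1 kb between the first pair and 290 kb between the second. Ccr4 (chr9:114490316-114504916, minus strand), Ccr8 (chr9:120092114-120094906, plus strand) and Cxcr5 (chr9:44511787-44561877, minus strand) stand farther off on the same chromosome. Cxcr4 occupies chr1:128588199-128592293 and Cxcr3 chrX:101731535-101734269, both on the minus strand. Cxcr6 lies inside the gene Fyco1 of the opposite strand, whose level was 4.98 to 17.1 CPM in the 7 libraries. Ccr9 overlaps Lztfl1 of the opposite strand, at 11.9 to 59.2 CPM, and the end of Cxcr5 overlaps Bcl9l, also opposite, at 4.71 to 78.2 CPM. Whether counting used the strand is not given in the sources used here.

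The bases before the start of 3 members are shown because the results turn on these genes: Ccr4 was the member that rose on activation, Ccr9 the one that fell most, and Cxcr6 the most abundant in naive DNT 2 and both activated libraries. Sequences are from RefSeq on GRCm38.p6, which matched 7 of the 8 symbols and not Cxcr5. Each runs 5′ to 3′ on the gene's strand from 250 bases before the RefSeq start to the last base before any exon of GENCODE vM21. The Ccr4 and Ccr9 windows lie inside the GENCODE spans of those genes given above, downstream of the outermost annotated start. Capitals mark matches to short motifs, listed after the sequences.
Ccr4, chr9:114496563-114496794, minus strand, 232 bases: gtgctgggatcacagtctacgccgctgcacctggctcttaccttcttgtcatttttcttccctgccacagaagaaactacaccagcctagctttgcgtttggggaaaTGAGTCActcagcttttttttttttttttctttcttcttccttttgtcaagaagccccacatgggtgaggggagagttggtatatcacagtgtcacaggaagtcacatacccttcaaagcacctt
Ccr9, chr9:123766961-123767168, plus strand, 208 bases: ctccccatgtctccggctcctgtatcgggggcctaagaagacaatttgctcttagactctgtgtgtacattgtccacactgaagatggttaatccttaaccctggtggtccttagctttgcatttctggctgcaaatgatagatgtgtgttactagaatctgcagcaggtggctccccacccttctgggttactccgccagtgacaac
Cxcr6, chr9:123806227-123806474, plus strand, 248 bases: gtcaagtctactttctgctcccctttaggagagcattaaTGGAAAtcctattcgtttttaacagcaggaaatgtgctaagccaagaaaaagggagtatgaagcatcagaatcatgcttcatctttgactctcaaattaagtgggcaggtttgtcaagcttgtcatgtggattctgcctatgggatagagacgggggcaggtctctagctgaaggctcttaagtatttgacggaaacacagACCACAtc

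In the full 250 bases before the start, on both strands, 6 motifs are reported, none of which contains another. They were TGANTCA for the factor AP-1, AGATAA for the GATA factors, GGTGTGA for the T-box factors, TGTGGT for the RUNX factors, TGGAAA for the NFAT factors and TATAAA for the TATA box. Among 7 members with a sequence, Ccr4 was the only one with the AP-1 letters, 143 bases before its start, and 6.75% of 32851 RefSeq windows of this length hold them. Cxcr6 held the NFAT letters 211 bases and the RUNX letters 10 bases before its start, which 18.6% and 14% of all windows hold. Ccr9 held none of the 6 motifs. A match of this kind describes the letters and not a bound site.

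Cxcr3, the receptor for the interferon-induced chemokines CXCL9 and CXCL10, marks T cells of type 1 responses. It was found at 77.1 and 98.0 CPM in the naive DNT libraries and at 15.8 and 43.3 CPM in the activated ones. The CD4 library had 31.7 CPM, CD8 41.3 CPM and TCRab 36.1 CPM. Both naive DNT libraries therefore lay above every other library, and activated DNT 2 and CD8 were neighbours whose 95% counting intervals overlapped (40.8 to 46.0 and 38.7 to 43.9 CPM).

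Cxcr6, the receptor for CXCL16, is carried by tissue-resident and innate-like T cells. Its level was 64.3 and 127 CPM in naive DNT, 78.1 and 336 CPM in activated DNT, 9.74 CPM in CD4, 61.2 CPM in CD8 and 28.5 CPM in TCRab. The groups of naive and activated DNT overlapped, and the highest library, activated DNT 2, stood apart from its own replicate. In that library 493 of the 872 cells with a Cxcr6 UMI held 3 or more, with up to 156 in 1 cell. In naive DNT 1 and CD8 the counting intervals overlapped (60.6 to 68.2 and 58.1 to 64.4 CPM). Cxcr6 supplied 31.5% of the UMIs of all 8 genes in each naive DNT library, 66.1% and 80.1% in the activated ones, and 15.1% in CD4, 32.9% in CD8 and 26.7% in TCRab.

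Ccr2 reads CCL2 and related monocyte-attracting chemokines, and on T cells it marks effector and memory states. Naive DNT had 26.3 and 50.4 CPM, activated DNT 2.42 and 6.26 CPM, CD4 6.04 CPM, CD8 3.46 CPM and TCRab 7.5 CPM. The naive libraries lay above all others, and the remaining 5 lay between 2.42 and 7.5 CPM. Ccr2 is also a monocyte gene, and cells with markers of B cells, myeloid cells, platelets or red cells gave 77 of its 453 UMIs in naive DNT 1 and 325 of 2687 in naive DNT 2. Without those cells the naive levels were 22.7 and 47.0 CPM.

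Cxcr4, the receptor for CXCL12, retains cells in bone marrow and helps to guide thymocytes. It had 22.5 and 96.9 CPM in naive DNT, 1.54 and 10.7 CPM in activated DNT, 6.18 CPM in CD4, 13 CPM in CD8 and 9.85 CPM in TCRab. The naive libraries were above all others but differed from each other more than for any other member with at least 20 CPM, and in both groups the kit v3 library was the higher one. The genes S100a8 and S100a9, which neutrophils make in quantity, led the list of genes raised in Cxcr4-positive naive cells. Cells with at least 10 UMIs of them numbered 11 and 14 in the naive libraries and held 7 of 389 and 48 of 5170 Cxcr4 UMIs. With these and the other-type cells left out, a choice made after the values were seen, Cxcr4 was at 21.2 and 94.6 CPM.

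Cxcr5, which takes follicular helper T cells and B cells to CXCL13 in the follicle, was low everywhere. It had 6.09 and 7.25 CPM in naive DNT, 1.13 and 0.634 CPM in activated DNT, 4.25 CPM in CD4, 4.87 CPM in CD8 and 3.67 CPM in TCRab. The counting intervals of CD4, CD8 and TCRab overlapped, and the activated libraries were below all others. B cell marker genes summed to 26.5 and 106 CPM in naive DNT and to 9.92 and 13.4 CPM in activated DNT. Cells with markers of other types held 8 of 105 Cxcr5 UMIs in naive DNT 1 and 63 of 387 in naive DNT 2.

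Ccr4, the receptor for CCL17 and CCL22 found on type 2 helper, regulatory and skin-homing T cells, ran the opposite way. Naive DNT had 1.10 and 3.34 CPM and activated DNT 18.9 and 20.3 CPM, and no other library exceeded the 2.58 CPM of CD4. In TCRab it was 1.15 CPM, and in CD8 it rested on 2 UMIs (0.0833 CPM). Ccr8, the receptor for CCL1, was the rarest member, with 0 and 4 UMIs in naive DNT, 1 and 45 UMIs in activated DNT, 4 in CD4, 0 in CD8 and 3 in TCRab. Only activated DNT 2, at 1.78 CPM from 27 cells, was clear of a floor of 3 UMIs by more than a few counts. The 0 UMIs of naive DNT 1 and CD8 allow a level of up to 0.174 and 0.125 CPM.

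Ccr9, the receptor for CCL25 of gut and thymus, was the only member that peaked outside the DNT groups. CD8 had 62.2 CPM, naive DNT 6.49 and 20.3 CPM, TCRab 19.9 CPM and CD4 3.78 CPM, while both activated DNT libraries had 7 UMIs (0.204 and 0.278 CPM). Naive DNT 2 and TCRab were neighbours with overlapping intervals (19.1 to 21.6 and 17.9 to 22.1 CPM). Plasmacytoid dendritic cells also carry Ccr9, and their marker Siglech was at 0 UMIs in every library except TCRab. The whole list of 3 markers, which includes Ccr9 itself, summed to 9.39 and 31.8 CPM in naive DNT, 2.33 and 5.51 CPM in activated DNT and 63.2 CPM in CD8, and its part in the Ccr9 levels was not tested.

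**Figure D1:**
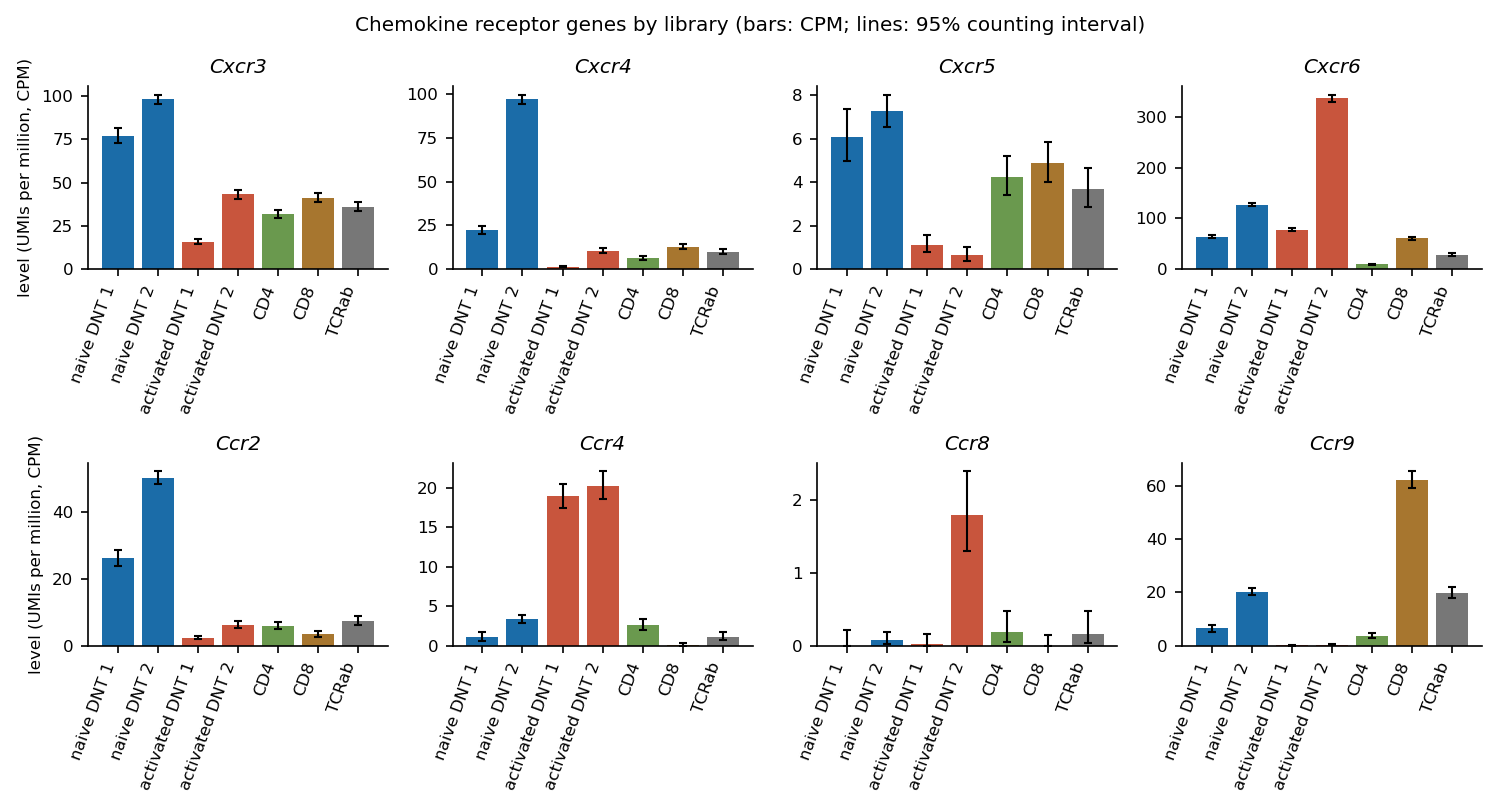
Level of each of the 8 receptor genes (CPM, vertical axis from 0) in each of the 7 libraries (bars), with the 95% counting interval (lines). Cxcr3, Cxcr4, Cxcr5 and Ccr2 are highest in the 2 naive DNT libraries, Ccr4 is highest in the activated ones (18.9 and 20.3 CPM), and Ccr9 is highest in CD8 (62.2 CPM).

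Activated DNT were compared with naive DNT to ask how the receptors differ after stimulation in culture. UMIs were summed per library and tested with edgeR's quasi-likelihood test, 2 against 2 libraries, with Benjamini-Hochberg adjustment over 12325 genes. Over all genes 656 (5.32%) were higher and 624 (5.06%) lower in activated DNT. Of 7 members tested, 1 rose (Ccr4) and 4 fell (Cxcr3, Cxcr5, Ccr2 and Ccr9), Cxcr4 and Cxcr6 did not pass, and Ccr8 was too low to be tested. The median log2 fold change was −2.96 over the 7 members and −0.05 over all genes. In 6 of the 8 members the CPM of the groups did not overlap, against 51.9% of all genes tested.

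Ccr9 had a log2 fold change of −5.81 ± 0.61 (SE, adjusted p = 0.00711, edgeR). Within kit v2 the naive level was 31.9-fold the activated one (95% counting interval 15 to 81.1) and within kit v3 73.3-fold (35.4 to 183). The CPM therefore fell in both kits, each time to 7 UMIs.

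Ccr2 had a log2 fold change of −3.30 ± 0.47 (adjusted p = 0.0108, edgeR), and its naive level was 10.9-fold the activated one in kit v2 and 8.04-fold in kit v3. Without cells carrying markers of other types it was −3.12 ± 0.50 (adjusted p = 0.0106). Cxcr5 had −2.96 ± 0.59 (adjusted p = 0.0263, edgeR), and −2.80 without those cells (adjusted p = 0.0291). Its call was lost without naive DNT 1 (adjusted p = 0.0756) and with cells thinned to 1500 UMIs (0.200).

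Cxcr3 was the weakest call, with a log2 fold change of −1.79 ± 0.45 (adjusted p = 0.0488, edgeR) and a naive level 4.87-fold the activated one in kit v2 and 2.26-fold in kit v3. Marker genes of natural killer cells summed to 15 and 15.4 CPM in naive DNT and 0.407 and 3.53 CPM in activated DNT, and their part in the Cxcr3 result was not tested. Cxcr3 no longer passed without naive DNT 1 (adjusted p = 0.155), naive DNT 2 (0.0820) or activated DNT 1 (0.252), or with DESeq2's size factors (0.0505), all barcodes (0.0504) or cells thinned to 1500 UMIs (0.296).

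Cxcr4 had a log2 fold change of −3.44 ± 0.93, the lowest after Ccr9, and did not pass (adjusted p = 0.0750, edgeR). Blocking on the replicate number, which marks the kit, left 1 residual degree of freedom. It gave −3.62 ± 0.29, which passed (adjusted p = 1.22e-05, edgeR), and Cxcr4 also passed in DESeq2 (0.000259). Cxcr4 did not pass in edgeR with no filter on low counts (0.171), with other-type cells left out (0.0831) or with cells thinned (0.114). Single libraries left out, with 1 library remaining in a group, moved the value between −4.99 and −2.48. The naive level was 14.6-fold the activated one in kit v2 and 9.05-fold in kit v3. In the blocked fit 19.9% of all genes were higher and 19.8% lower, and 1 member rose and 5 fell.

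Ccr4 rose by 3.11 ± 0.49 on the log2 scale (adjusted p = 0.0145, edgeR), 17.2-fold within kit v2 (10.9 to 28.8) and 6.08-fold within kit v3 (5.12 to 7.26). Over 10 random thinnings, added after seeing the data, Ccr4 was called in 5 and Ccr2 in 6. Cxcr6 had a log2 fold change of 0.91 ± 0.59 (adjusted p = 0.363), 1.21-fold within kit v2 and 2.64-fold within kit v3. Its direction rested on activated DNT 2, since without that library the value was −0.10. For Ccr8 the kit v3 ratio was 23.8 (8.67 to 91.1), and no fold was taken in kit v2, where both libraries were under the floor. With no filter on low counts Ccr8 gave a log2 fold change of 3.87 ± 1.48 (adjusted p = 0.108, edgeR), and DESeq2 gave 4.22 (0.142). It was 3.47 without naive DNT 1, 7.21 without naive DNT 2 and 4.85 without activated DNT 1, the activated library with 1 UMI.

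**Figure D2:**
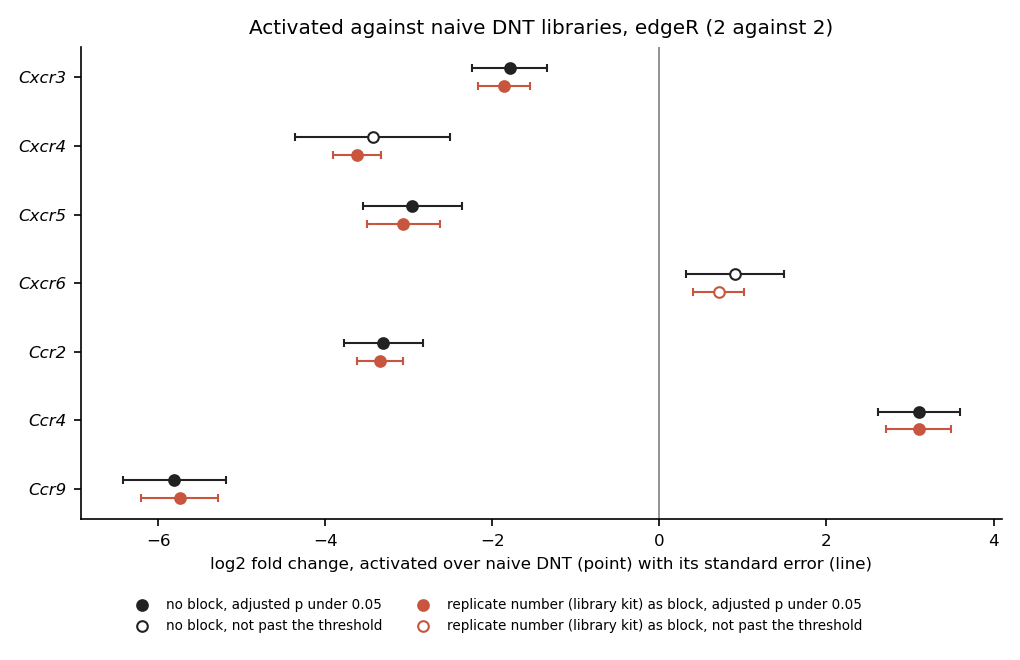
Log2 fold change of activated over naive DNT (horizontal axis) with its standard error (lines) for the 7 members tested, without a block (black) and blocked on the replicate number (red); filled points passed an adjusted p of 0.05 in edgeR. Ccr4 lies at 3.11 and Ccr9 at −5.81, and Cxcr4 is the member whose call differs between the fits.

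The share of cells with at least 1 UMI depends on depth, and activated cells were deeper, so shares were also taken after each cell was thinned to 1500 UMIs, leaving out 0 to 80 shallower cells per library. Cxcr3 was detected in 25.3% and 43.5% of naive DNT cells and in 21.9% and 36.9% of activated cells. After thinning the shares were 10.5% and 12.8% against 2.96% and 9.02%, so that the groups, which overlap at full depth, no longer did. The CD4, CD8 and TCRab libraries had 6.99%, 15.2% and 9.11% (3.56%, 5.10% and 3.92% thinned).

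Cxcr6 was detected in 13.6% and 30.1% of naive and 43.6% and 56.3% of activated DNT cells. Thinned, these were 7.14% and 12.6% against 9.49% and 28.0%, and the groups overlapped. In CD8 it was 23.6% (8.65% thinned) and in CD4 2.13% (1.0% thinned). Cxcr4 was found in 8.67% and 43.8% of naive cells (3.52% and 13.5% thinned) and in 2.51% and 11.8% of activated cells (0.447% and 2.85% thinned), so its groups overlapped at full depth and stood apart only by a small margin after thinning.

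Ccr2 was detected in 6.37% and 14.9% of naive and 2.46% and 3.94% of activated cells (2.50% and 5.6% against 0.279% and 1.15% thinned). Ccr9 was found in 1.93% and 5.45% of naive cells, 0.279% and 0.387% of activated cells and 23.1% of CD8 cells (9.06% thinned). Ccr4 was detected in 0.420% and 2.17% of naive cells and in 19.3% and 11.5% of activated cells at full depth. After thinning the Ccr4 shares were 0.0749% and 0.436% against 1.95% and 1.7%, the same direction at a far lower level. Activated cells with a Ccr4 UMI were deep ones, with median UMIs of 27399 against 13698.5 in cells without in replicate 1, and 31131.5 against 8687 in replicate 2.

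Free RNA was gauged in cells that should lack these genes. Naive DNT 2 held 72 cells with B cell markers and no UMI of Cd3d, Cd3e or Cd3g, with a median of 4854.5 UMIs, against 7511 over all cells. Of these, 0 had a UMI of Cxcr3 or Ccr4, 1 of Cxcr6, 1 of Ccr9 and 3 of Ccr2, while 42 had Cxcr4 and 22 Cxcr5, which B cells make themselves. The 0 of 72 allows a share of up to 4.99% and the 1 of 72 up to 7.5%, so at this number of cells the Ccr4 and Ccr9 shares of naive DNT 2 (2.17% and 5.45%) were not above what background could give. That limit also applies to the co-detection of these genes in naive DNT. Each of the other libraries had 0 to 3 such cells, which is too few for a share. Requiring no Cd3 UMI also leaves out B cells that took up free T cell RNA, so these shares can be too low. Among all 298 B-marker cells of naive DNT 2, 26.2% had Cxcr3, 32.6% Cxcr6, 22.5% Ccr2, 2.35% Ccr4 and 4.70% Ccr9. Those cells can include doublets, and the part of free RNA in the Cxcr3, Cxcr6 and Ccr2 shares was not tested.

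**Figure D3:**
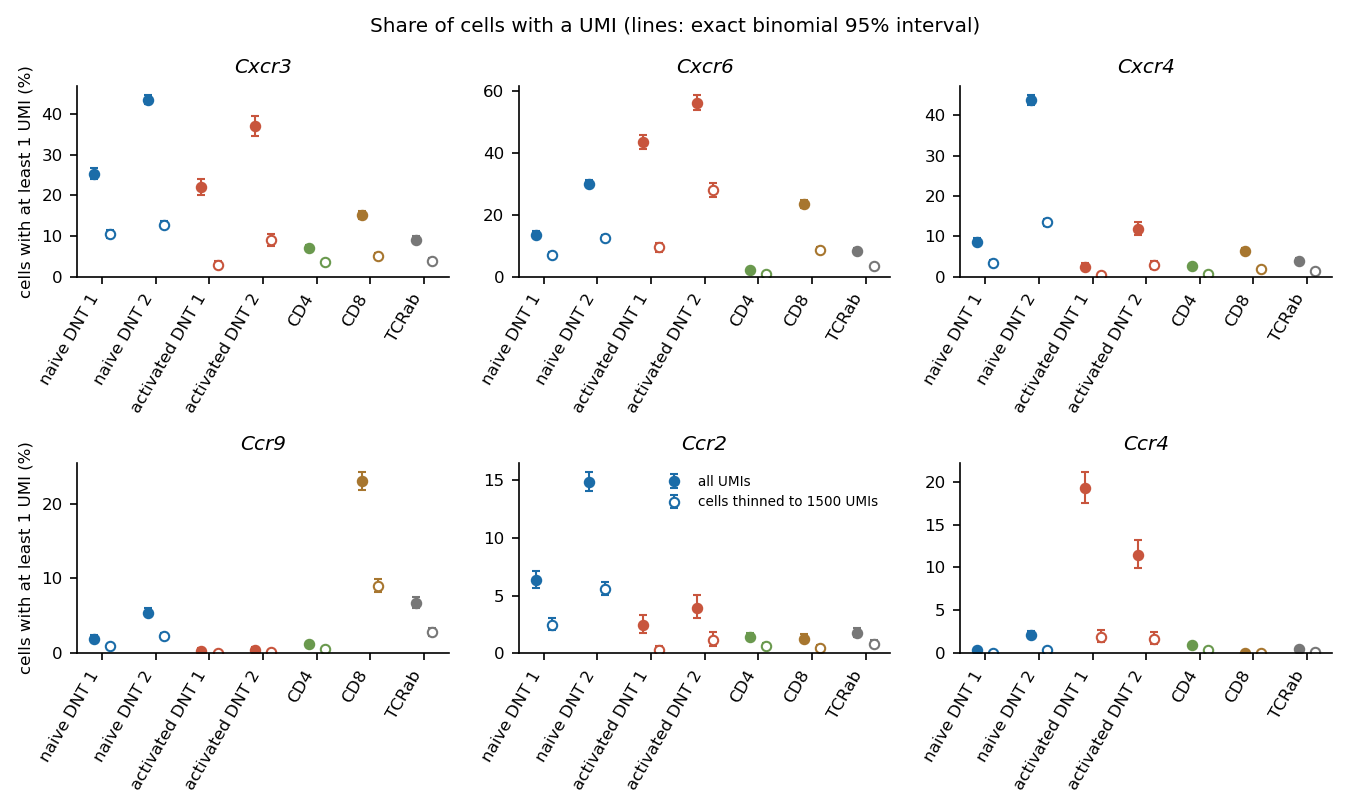
Percent of cells with at least 1 UMI of 6 receptor genes in each library, at full depth (filled) and after thinning to 1500 UMIs per cell (open), with exact binomial 95% intervals (lines). Ccr4 in activated DNT drops from 19.3% and 11.5% to 1.95% and 1.7%, and CD8 is the highest library for Ccr9 at both depths.

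Naive DNT cells were set against the other uncultured sorts to see which receptors set them apart. With 1 library on one side there is no test, and a gene was counted when both naive libraries lay on the same side of the other library by 2-fold or more, and every library of the higher side reached 20 CPM. Against CD4, 4 members were higher in naive DNT (Cxcr3, Cxcr4, Cxcr6 and Ccr2) and 0 lower, where 1.29% of all genes were higher and 0.315% lower. In each comparison the share is over every gene with a UMI in the libraries compared, 17143 here. These include genes under 20 CPM, which the rule cannot count. Cxcr6 was 6.61-fold (5.70 to 7.69) and 13.1-fold (11.4 to 15) the CD4 level and Cxcr3 2.43-fold and 3.09-fold. Against TCRab the same 4 members were higher, beside 0.994% of all genes higher and 0.281% lower. Against CD8, Ccr2 was higher, 7.60-fold (6.00 to 9.72) and 14.6-fold (11.7 to 18.4), and Ccr9 lower, with CD8 9.59-fold and 3.06-fold the naive level, beside 1.13% of all genes higher and 0.123% lower. Cxcr6 in naive DNT was 1.05-fold and 2.08-fold the CD8 level and did not meet the rule. Intervals cover counting error only. The first ratio of each pair is from naive DNT 1, which shares kit v2 with the CD4, CD8 and TCRab libraries. The second is from naive DNT 2 of kit v3, where kit and cell type cannot be told apart. For Cxcr4 against CD4 the ratios were 3.65-fold and 15.7-fold.

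CD4 and CD8 cells differed in 2 members by the same rule, both lower in CD4, beside 0.378% of genes higher and 0.406% lower in CD4. Ccr9 was 16.5-fold (13.2 to 20.8) and Cxcr6 6.29-fold (5.44 to 7.30) higher in CD8. The TCRab library, which holds both kinds of cell in one preparation, gave the same order. Its 1849 cells with a Cd8a or Cd8b1 UMI and no Cd4 UMI had 34.9 CPM of Ccr9, against 4.13 CPM in the 710 cells with a Cd4 UMI and no Cd8 UMI, a ratio of 8.45 (4.76 to 16.5). For Cxcr6 the ratio was 3.42 (2.46 to 4.89) and for Cxcr3 1.02 (0.819 to 1.27). A further 594 TCRab cells held UMIs of both Cd4 and Cd8, so neither class is free of doublets or free RNA. Ccr4 went the other way between the sorted libraries, 31.0-fold higher in CD4 with an interval of 8.20 to 263 that reflects the 2 UMIs of CD8, a count under the floor of 3. In the TCRab split the Ccr4 ratio of Cd4 to Cd8 cells was 1.24 (0.207 to 5.43), from 3 and 7 UMIs.

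In naive DNT some pairs of receptors were not distributed over cells independently of each other. Cells with UMIs of both genes were counted and set beside the number expected from the shares of each within 10 bins of UMIs per cell, as a description of each library. At least 2 members were detected in 10.2% and 45.6% of naive cells and 24.1% and 37.7% of activated cells (1.90%, 8.39%, 0.670% and 5.16% thinned). Of 28 pairs, 13 and 21 had at least 5 cells expected in naive DNT 1 and 2. Among these, 1 and 6 pairs lay above and 3 and 11 below expectation by their 95% counting intervals. In activated DNT 1 and 2, 12 and 15 pairs had that many expected cells, with 1 and 2 above and 0 and 2 below. In CD4, CD8 and TCRab these were 5, 13 and 11 pairs, with 3, 3 and 5 above and 0, 3 and 1 below.

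The clearest pair was Cxcr6 with Ccr2. In naive DNT 1, 130 cells held both where 42.3 were expected (3.07-fold, 2.57 to 3.65), and in naive DNT 2, 801 held both where 335 were expected (2.39-fold, 2.23 to 2.57). Of the Ccr2-positive naive cells, 50.4% and 80.0% had a Cxcr6 UMI. The ratio was 1.58 and 1.60 in activated DNT, 1.65 in CD8 and 3.39 in TCRab. In naive DNT 2 Ccr4 joined this pair: it occurred with Ccr2 in 103 cells where 26.7 were expected (3.86-fold) and with Cxcr6 in 113 where 50.7 were expected (2.23-fold). In activated DNT 2 the ratio of Cxcr6 with Ccr4 was 1.30 (1.10 to 1.52) and in activated DNT 1 it was 1.08 (0.936 to 1.23).

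Cxcr3 was found less often than expected with Ccr2 and with Ccr9 in naive DNT. It occurred with Ccr2 in 0.613 and 0.647 of the cells expected and with Ccr9 in 0.400 and 0.686, while with Cxcr6 the ratio was 0.918 and 0.957. For Cxcr3 with Ccr2 the ratio lay above 1 in the other uncultured sorts, at 5.72 in CD4 (4.05 to 7.85), 2.76 in CD8 (1.98 to 3.74) and 4.06 in TCRab (2.91 to 5.51). Naive DNT and those sorts thus lay on opposite sides of expectation, with intervals that did not overlap, and the difference was not tested. In CD4, Cxcr3 was also found with Cxcr5 at 5.16-fold and with Cxcr6 at 5.96-fold the number expected. Cxcr5 and Cxcr6 met less often than expected in naive DNT, with ratios of 0.472 and 0.484.

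The neighbouring genes Cxcr6 and Ccr9 were found together more often than expected in naive DNT 2 (151 cells, 106 expected, 1.42-fold), CD8 (308 and 247, 1.25-fold) and TCRab (57 and 27.6, 2.06-fold). In naive DNT 1 the ratio was 1.38 with an interval of 0.753 to 2.31. In CD8, where Cxcr3 is detected in 15.2% of cells and Ccr9 in 23.1%, they shared 58 cells where 138 were expected (0.419-fold). Doublets were not removed, and their part in these counts was not tested.

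**Figure D4:**
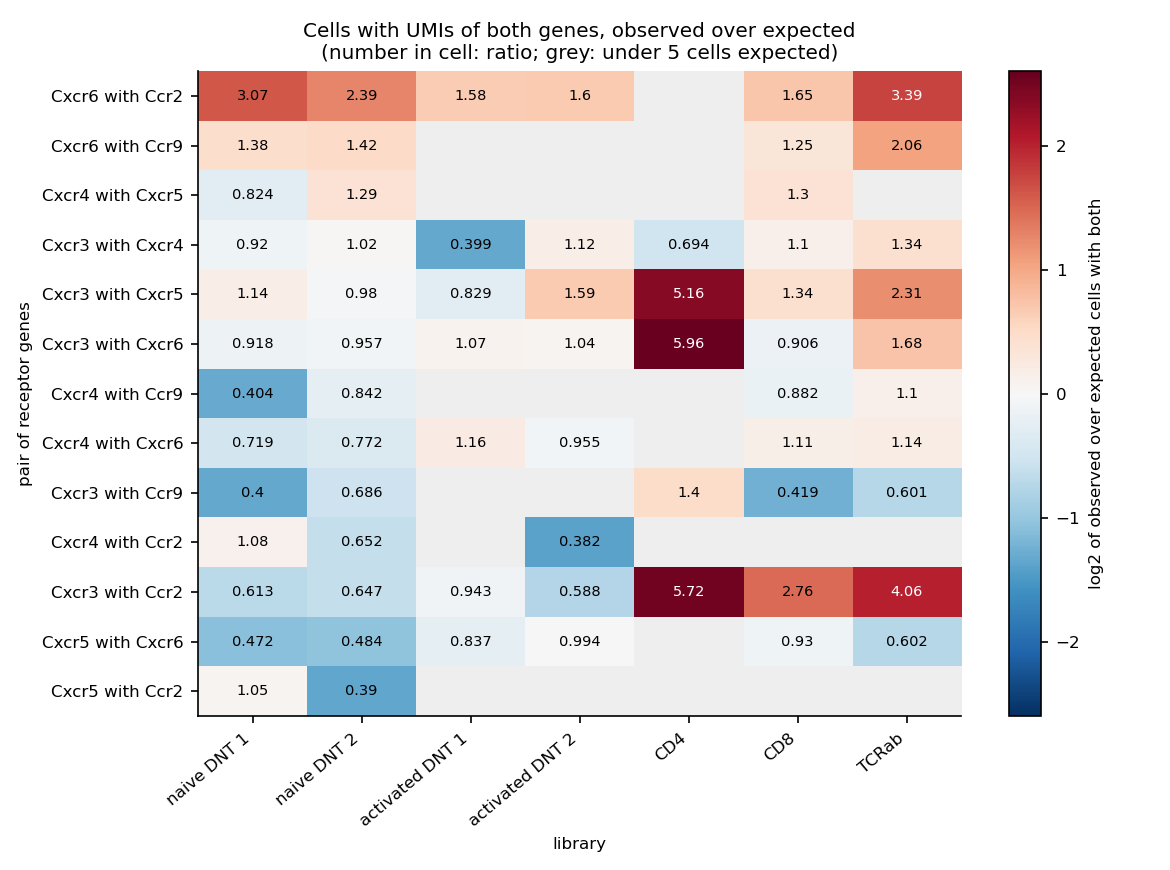
Cells with UMIs of both genes of a pair, as observed over expected number (value in each square, colour on a log2 scale), for the 13 pairs with at least 5 cells expected in both naive DNT libraries; columns are the 7 libraries and grey squares had under 5 expected. Cxcr6 with Ccr2 is above 1 in every library shown, and Cxcr3 with Ccr2 is at 0.613 and 0.647 in naive DNT and 5.72 in CD4.

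To see what else such cells carried, levels were compared between cells with and without a UMI of each member, after cells with markers of other types were left out. In naive DNT, cells with Cxcr6 had Zbtb16, which encodes the PLZF factor of innate-like T cells, at 20.2 against 0.852 CPM in replicate 1 and 62.8 against 4.56 CPM in replicate 2. Cells with Ccr2 showed the same order, with Zbtb16 at 34.8 against 1.36 CPM and 105 against 8.07 CPM. Il4, a type 2 cytokine gene, was at 11.9 against 0.710 CPM and 14.3 against 1.05 CPM in cells with and without Cxcr6. Il17a, the interleukin 17A gene, had 9 against 0 UMIs in replicate 1 and 37.6 against 1.29 CPM in replicate 2, and with Ccr2 it had 8 against 1 UMIs and 68.0 against 2.67 CPM. The genes most raised with Cxcr6 in both replicates were S100a4, Lmo4, Ckb, Pxdc1 and Tmem176b, and with Ccr2 S100a4, Ckb, Capg, Tmem176b and Lmo4. S100a4, a calcium-binding protein of motile and memory cells, had 729 against 62.7 CPM and 733 against 54.4 CPM in cells with and without Cxcr6. The lists share S100a4, Ckb, Tmem176b and Lmo4, and the cells behind them overlap as counted above.

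Other genes of the partner list were lower in naive cells with Cxcr6. Ccr7, the receptor of lymph node entry, was at 45.2 against 76.7 CPM and 82.6 against 174 CPM in cells with and without it. Klf2, a factor of T cell recirculation, was at 914 against 1499 CPM and 855 against 1429 CPM. Eomes, a T-box factor of cytotoxic and memory cells, was at 29.8 against 66.5 CPM and 22.3 against 69.4 CPM.

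Cells with Cxcr3 had a different set. The genes most raised in both naive libraries were Xcl1, Klra7, Klrk1, Ifng and Klrc1, which hold a chemokine, interferon gamma and 3 natural killer receptor genes, all raised by small factors. Ifng was at 62.7 against 43.2 CPM and 120 against 62.4 CPM, and Ccl5 at 14554 against 11136 CPM and 7738 against 5480 CPM. Zbtb16 was lower with Cxcr3, at 1.32 against 4.74 CPM and 14.4 against 33.7 CPM.

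Naive cells with Ccr9 had less of the effector chemokine Ccl5 than cells without, 2676 against 12238 CPM and 2308 against 6819 CPM. Il4 was higher in them, as with Cxcr6 and Ccr2, at 21.2 against 2.08 CPM and 25.3 against 4.47 CPM, the first from 6 UMIs. Their leading genes were Ly6c1, Ly6a, Igfbp4, Sox4 and Tesc, with Ly6c1 at 91.7 against 6.93 CPM and 42.4 against 3.19 CPM. In CD8 the same contrast was seen, with Ccl5 at 542 CPM in cells with Ccr9 and 1864 CPM in cells without, while CD8 cells with Ccr2 had 14061 against 1366 CPM. Naive cells with Cxcr5 were led by Krt18, Rgs16, Slamf7, Ptprk and Eomes, with Eomes at 137 against 58.8 CPM and 121 against 49.8 CPM. After S100a8 and S100a9, naive cells with Cxcr4 were led by Ccr7, Ctla2a and Gm8369 at small factors, with Ccr7 at 101 against 69.3 CPM and 169 against 121 CPM.

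In activated DNT, interleukin genes headed the lists of Cxcr6, Ccr4 and Cxcr4. Cells with Cxcr6 had Il17a at 571 against 37.2 CPM in replicate 1 and 559 against 3.73 CPM in replicate 2, followed by Ccl20, S100a4, Il13 and Il4. Cells with Ccr4 had Il13 at 285 against 19.0 CPM and 190 against 5.03 CPM, followed by Il4, Il22, Il17a and Ccl20. Il4 was at 197 against 16.1 CPM and 140 against 4.68 CPM in cells with and without Ccr4. The division genes Mki67 (35.0 against 23.6 and 126 against 52.1 CPM) and Top2a (118 against 81.0 and 302 against 134 CPM) were also higher with Ccr4. Depth moved with Ccr4 as given above. It also moved with Cxcr6, at median UMIs of 19814 against 13365.5 in activated DNT 1 and 10690.5 against 8279 in activated DNT 2. With Ccr2 the medians were 24162 against 15522 and 10338 against 9341.5. The part of depth in the contrasts of activated cells was not tested. Cells with Ccr2 were led by Ly6a, Il4, Furin and Maf, cells with Cxcr3 by Ccl20, Ccl1, Angptl2, Ube2c and Tnfsf11, and cells with Cxcr4 by Il13, Icam1, Gadd45b, H2-Q6 and Klf2.

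The Ccr4-positive cells of the CD4 library differed from these. They numbered 46 before other-type cells were left out and had Foxp3, the factor of regulatory T cells, at 99.5 against 8.60 CPM. Ikzf2, a second gene of that lineage, was at 291 against 30.2 CPM, and Il4 was at 0 UMIs in them. No SD or test is given for these values, because cells of 1 library are not replicates.

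**Figure D5:**
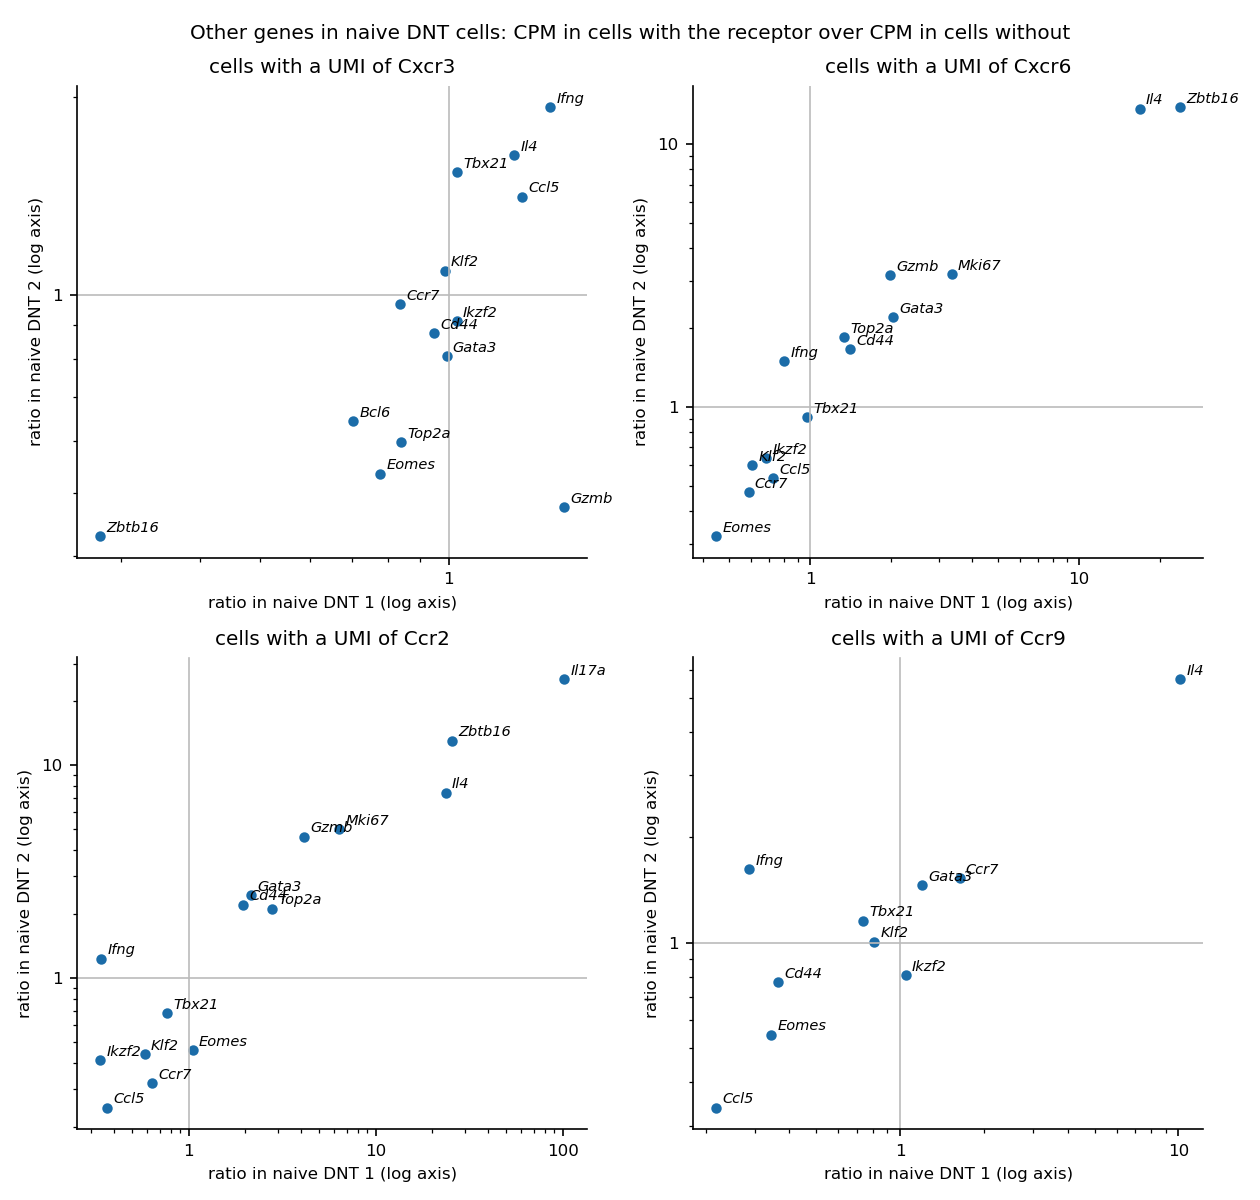
Ratio of CPM in naive DNT cells with a receptor UMI to CPM in cells without, for partner genes with more than 3 UMIs in the positive cells of both libraries, in naive DNT 1 (horizontal) and naive DNT 2 (vertical), log axes, grey lines at 1. Zbtb16 and Il4 stand at the upper right for Cxcr6 and Ccr2, and Il4 also does for Ccr9. Zbtb16 is at the lower left for Cxcr3, and Ccl5 is at the lower left for Ccr9.

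Other genes of the pathway were read as lists in the same test of activated against naive DNT. Of 16 other chemokine receptors 8 were tested, 0 rose and 3 fell, with a median log2 fold change of −0.94. The 3 were Ccr10 (−4.54 ± 0.85, adjusted p = 0.0217, edgeR), Ccrl2, an atypical receptor (−3.86 ± 0.49, adjusted p = 0.00928), and the fractalkine receptor Cx3cr1 (−3.95 ± 0.80, adjusted p = 0.0277). Ccr7 had 70.6 and 154 CPM in naive and 71.0 and 205 CPM in activated DNT, and its log2 fold change was 0.14 ± 0.49 (adjusted p = 0.886). Of 14 ligands of the members 13 were measured and 6 tested. Ccl1, the ligand of CCR8, rose from 0 and 2 UMIs (0.0375 CPM in naive DNT 2) to 1634 and 568 CPM (adjusted p = 0.00633), and 0 ligands fell. Ccr8 itself was at 1 and 45 UMIs in those activated libraries.

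Of 24 signalling genes below the receptors, all tested, 1 rose and 4 fell, with a median of −0.45 (2 and 11 with the block). Rgs16, which ends G protein signals, rose by 3.40 ± 0.48 (adjusted p = 0.0107, edgeR), while Rgs2 (−3.16), the arrestin gene Arrb2 (−1.67), the migration factor Dock2 (−1.75) and Plcb2 (−2.51) fell. Of 17 tested regulators 0 rose and 4 fell (Foxo1, Klf2, Klf3 and Tsc22d3), with a median of −0.64 (0 and 7 with the block). Klf2, which sustains S1pr1, had a log2 fold change of −4.55 ± 0.84 (adjusted p = 0.0213, edgeR), and with the block it did not pass (0.0855). Of 14 other homing receptors 0 rose and 6 fell, among them S1pr1, Gpr183, Cd69, Itga4 and Itgb7, with a median of −1.78 (0 and 10 with the block). These lists stand beside 5.32% of all genes higher and 5.06% lower without the block, and 19.9% and 19.8% with it.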

How the data were processed

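UMI counts per gene and cell barcode, as deposited by the authors without normalization, were used as raw counts. Per the submitters' processing notes, Cell Ranger 2.1.0 and 3.0.1 were used with mm10 (GRCm38), and per the file headers the kit v3 matrices carry software version 3.0.2. The references hold 27998 (kit v2) and 31053 (kit v3) genes, of which 27514 are shared by gene ID and were used. Shared-gene depth ranged from 17255173 to 53342795 UMIs per library.

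Barcodes with under 200 genes or over 10% mitochondrial UMIs were dropped. Doublets were not called. Cells of other types were those with at least 2 UMIs of B cell, myeloid or platelet markers or at least 10 of haemoglobin genes. Of 513 B-marker cells, 436 carried a Cd3 UMI, so only the 77 others served as a background. CPM, shares with exact binomial (Clopper-Pearson) intervals, and exact Poisson and conditional intervals for ratios, all at 95%, cover counting error only. The floor for a count of 0 is 3 UMIs.

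Activated and naive DNT were compared with edgeR 4.0.16 in R 4.3.3 (filterByExpr, TMM, robust quasi-likelihood F test, Benjamini-Hochberg at 0.05, 2 residual degrees of freedom), checked on simulated data. The alternatives included DESeq2 1.42.0. Replicate numbers pair the libraries, since per the labels number 1 is kit v2 and number 2 kit v3. Deviations from group means of same-numbered libraries correlated across 12325 genes with r = 0.617, genes not being independent replicates. Cells were handled in Python 3.11.15 (SciPy 1.17.1, NumPy 2.4.6, pandas 2.3.3) and figures drawn in matplotlib 3.10.9.

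All 8 members are named. Genes most like a member were the 5 with the highest ratio of CPM in positive over negative cells (20 CPM added to both), ranked by the lower of the 2 replicates, among genes with at least 20 UMIs in positive cells of each, for members with at least 30 positive cells in both libraries. Partner and pathway genes came from written lists, naming those past the test. A few genes and 1 motif that these rules cover are not reported here. Members and lists were chosen with earlier results of these data known.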

Additional observations from a re-analysis of the deposited data

How the results depend on the processing

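Ccr2, Ccr4 and Ccr9 kept their direction and stayed past the threshold in all 11 other settings of the activated against naive comparison and with S100a8 and S100a9 cells left out, an alternative added after seeing the data. Cxcr6 passed in none, and without activated DNT 2 its log2 fold change turned to −0.10 (range −0.10 to 1.52 with single libraries left out). Cxcr3 lost its call in 6 alternatives and Cxcr5 in 2. With the replicate block the genes called were 2458 higher and 2436 lower, and apart from Cxcr4 it changed no member's call. The counts higher and lower were 1240 and 1150 with DESeq2, 1083 and 1105 without a filter on low counts, and 245 and 139 after thinning. They ranged from 277 to 1032 higher and 270 to 1042 lower when single libraries were left out, where a lone library is taken to vary like the other group.

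Thinning depends on the draw. Over 10 draws, a check added after seeing the data, Ccr9 was called in 10, Ccr2 in 6, Ccr4 in 5 (adjusted p 0.0137 to 0.102), Cxcr5 in 1 and Cxcr3, Cxcr4 and Cxcr6 in 0, with 274 to 431 genes called in all.

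Genes past the size rule, in the order naive DNT against CD4, against CD8 and against TCRab, then CD4 against CD8, numbered 276, 213, 218 and 114. At 10 CPM they were 446, 341, 359 and 198, and at 3-fold 153, 114, 103 and 71, where 3 members in place of 4 were higher in naive DNT than in CD4 and 1 in place of 4 than in TCRab. With shares of the whole library, Cxcr6 with Ccr2 in naive DNT had 3.70 and 2.66 times the expected cells, and 4.15 in naive DNT 2 after thinning. Of the 90 pair ratios with 5 expected cells, thinning moved 57 beyond their interval and shares of the whole library moved 13. All 90 stayed within it with other-type cells left out. A turn to the other side of 1 was counted only for ratios whose interval excluded 1. After thinning 1 of these turned, Cxcr4 with Ccr4 in naive DNT 2, to 1.79. Thinning moved 52 of 56 shares beyond their interval and leaving out other-type cells moved 0. Since thinning lowers detection by its design, the 52 do not measure whether the order of the groups held. Ccr8 outside activated DNT 2 and Ccr4 in CD8 rest on 0 to 4 UMIs, which limits their precision.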

Other observations

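The ligands of CCR4 differed between the activated DNT libraries. Ccl17 was at 31.3 CPM in activated DNT 1 and 0.674 CPM in activated DNT 2, and Ccl22 at 2.97 CPM and 0 UMIs. Both were at 0 UMIs in naive DNT 1, and the receptor itself was at 18.9 and 20.3 CPM in the activated libraries. Ccl17 had a log2 fold change of 7.37 ± 2.74 (adjusted p = 0.205, edgeR).

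In the CD8 library Ccr2 and Ccr9 were found together in 1 cell where 11.7 were expected, or 0.0852-fold (0.00216 to 0.475). The same pair in naive DNT 2 was found in 86 cells where 52.8 were expected (1.63-fold, 1.30 to 2.01).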
